A study of Mus musculus with 36 samples.

Results

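Glucocorticoids act on adipocytes through the glucocorticoid receptor. Here 8 genes around that receptor were followed on 36 arrays of mouse cells isolated as adipocytes. They are Fkbp5, Tsc22d3, Zbtb16 and Sgk1, which the receptor induces, Nr3c1, which encodes the receptor, Hsd11b1, which encodes the enzyme that regenerates active hormone inside the cell, and the metallothioneins Mt1 and Mt2, which respond to glucocorticoid and to metal. The members were taken by gene symbol, from a list drawn up with earlier results of these data known, and each symbol has exactly 1 probe set on the array, so that 8 of the 23410 probe sets with a symbol are described. The cells came from the epididymal fat pad and from the marrow of femur and tibia of male mice. Their RNA was hybridized to Affymetrix Mouse Gene 1.0 ST arrays. In each depot the groups were 6-month-old ob/ob mice, which lack leptin in every cell and were kept on standard chow, C57BL/6J mice fed a high fat diet (HFD, 60% of calories as fat, for 12 weeks) and killed at 6 or 14 months, and C57BL/6J mice on chow at 6, 14 and 18 months. Each of the 12 groups has 3 arrays, and the RNA on an array was a pool from several animals, with 6 to 10 mice in a group, so the spread between arrays is a spread between pools and not between animals. The labels do not say that the pools hold different animals, and p-values then measure only the spread between these pools. The paper states that the cells of both depots were taken from the same mice, but not which pools match. Comparisons between depots treat the arrays as independent.

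In the resting cell the receptor sits in the cytosol in a complex with chaperones, among them the immunophilin Fkbp5, which lowers its affinity for hormone. Bound to corticosterone it moves to the nucleus, binds response elements and induces, among many others, Fkbp5 itself as a feedback brake, Tsc22d3 (also called GILZ, a leucine zipper protein that restrains inflammatory signalling), Zbtb16 (also called PLZF, a zinc finger repressor) and Sgk1 (a kinase that regulates ion transport and shares targets with Akt). Tissue exposure is set in part by 11β-hydroxysteroid dehydrogenase type 1, the product of Hsd11b1, which is well expressed in fat. Mice without leptin are known for high circulating corticosterone. No hormone level was analysed here.

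The deposited values are on a log2 scale, so a difference of 1 is 2-fold, and levels are compared only within a probe set, not between genes. A probe set is called where its groups differ by at least 2-fold and its p from limma, adjusted across the 23410 probe sets, is under 0.05, and it passes the test where the adjusted p alone is under 0.05. Values written with ± are a log2 difference and its standard error unless SD is named. In some probe sets that carry no gene name, 8 arrays part from the 28 others. This array set holds ob/ob array 03, chow array 01 and the 3 HFD arrays of bone marrow at 6 months, together with the 3 HFD arrays of epididymal cells at 6 months. Nothing in the sources used here names this set, and in epididymal cells it is the same 3 arrays as the 6-month HFD group. Diet and array set cannot be told apart there unless the estimate made in bone marrow is carried over. The 6 arrays at 18 months are parted from the rest by 5 unnamed probe sets of their own.

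The labelled cell type was checked against markers. The mean log2 of 9 adipocyte markers lay between 11.44 and 12.90 on all epididymal arrays, but between 6.81 and 8.77 on all bone marrow arrays, where 10 neutrophil markers lay between 11.54 and 12.26. The bone marrow preparations are therefore called bone marrow cells here. No marker value is 0 on this scale, whose lowest value is 1.93.

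Promoter windows from RefSeq (GRCm38.p6, 250 bases before to 50 after an annotated start) were found for 6 of the 8 members, 13 windows in all, and Zbtb16 and Nr3c1 had none. They were searched on both strands for the full glucocorticoid response element (the hexamers AGAACA and TGTTCT set 3 bases apart), for the hexamer AGAACA alone, whose reverse complement is TGTTCT, for the core of the metal response element (TGCNCNC) and for the TATA box (TATAAA). The full element is held by 3 of 32851 windows in the table (0.00913%), and 1 of these is a window of Sgk1, 1 of the 6 for that gene. The hexamer, which the full element contains, is held by 19% of all windows, the metal core by 51% and the TATA box by 13.6%. The windows of Sgk1 with the full element and of Tsc22d3 with a single hexamer are shown with hexamers in capitals, because Sgk1 and Tsc22d3 were among the members whose ob/ob difference depended on the depot.
Sgk1, chr10:21993640-21993939, plus strand: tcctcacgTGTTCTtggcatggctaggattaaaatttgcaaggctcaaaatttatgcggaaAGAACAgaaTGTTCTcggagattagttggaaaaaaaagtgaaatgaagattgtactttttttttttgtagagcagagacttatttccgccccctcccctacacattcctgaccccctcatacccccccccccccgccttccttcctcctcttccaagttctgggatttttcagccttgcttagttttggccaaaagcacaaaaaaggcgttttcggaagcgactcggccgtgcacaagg
Tsc22d3, chrX:140600473-140600772, minus strand: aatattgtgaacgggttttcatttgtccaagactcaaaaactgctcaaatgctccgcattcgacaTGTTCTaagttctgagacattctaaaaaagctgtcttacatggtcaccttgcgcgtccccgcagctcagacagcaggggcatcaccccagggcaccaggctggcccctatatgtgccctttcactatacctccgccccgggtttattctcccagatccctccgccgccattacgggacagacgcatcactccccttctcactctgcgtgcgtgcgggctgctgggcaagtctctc

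The 2 metallothionein genes lie next to each other on chromosome 8. Their windows are shown with metal cores in capitals because both moved together with age on chow within each depot. Mt2 holds 6 matches and Mt1 holds 3, and neither holds a glucocorticoid hexamer in its window.
Mt2, chr8:94172368-94172667, plus strand: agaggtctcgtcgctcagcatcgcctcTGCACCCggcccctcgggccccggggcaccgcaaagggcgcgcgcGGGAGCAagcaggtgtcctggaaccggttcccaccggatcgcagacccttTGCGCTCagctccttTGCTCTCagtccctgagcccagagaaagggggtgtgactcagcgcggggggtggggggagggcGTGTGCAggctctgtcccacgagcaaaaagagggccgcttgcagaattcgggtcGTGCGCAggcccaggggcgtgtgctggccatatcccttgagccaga
Mt1, chr8:94178839-94179138, plus strand: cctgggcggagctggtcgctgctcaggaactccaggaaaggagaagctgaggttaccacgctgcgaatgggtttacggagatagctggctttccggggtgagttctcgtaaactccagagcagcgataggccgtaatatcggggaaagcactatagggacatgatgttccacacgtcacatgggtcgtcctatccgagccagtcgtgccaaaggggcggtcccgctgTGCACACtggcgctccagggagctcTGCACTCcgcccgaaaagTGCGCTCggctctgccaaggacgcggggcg
The window of Fkbp5 (chromosome 17, minus strand) holds no glucocorticoid hexamer, and that of Hsd11b1 (chromosome 1, minus strand) holds none either.

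**Figure D1:**
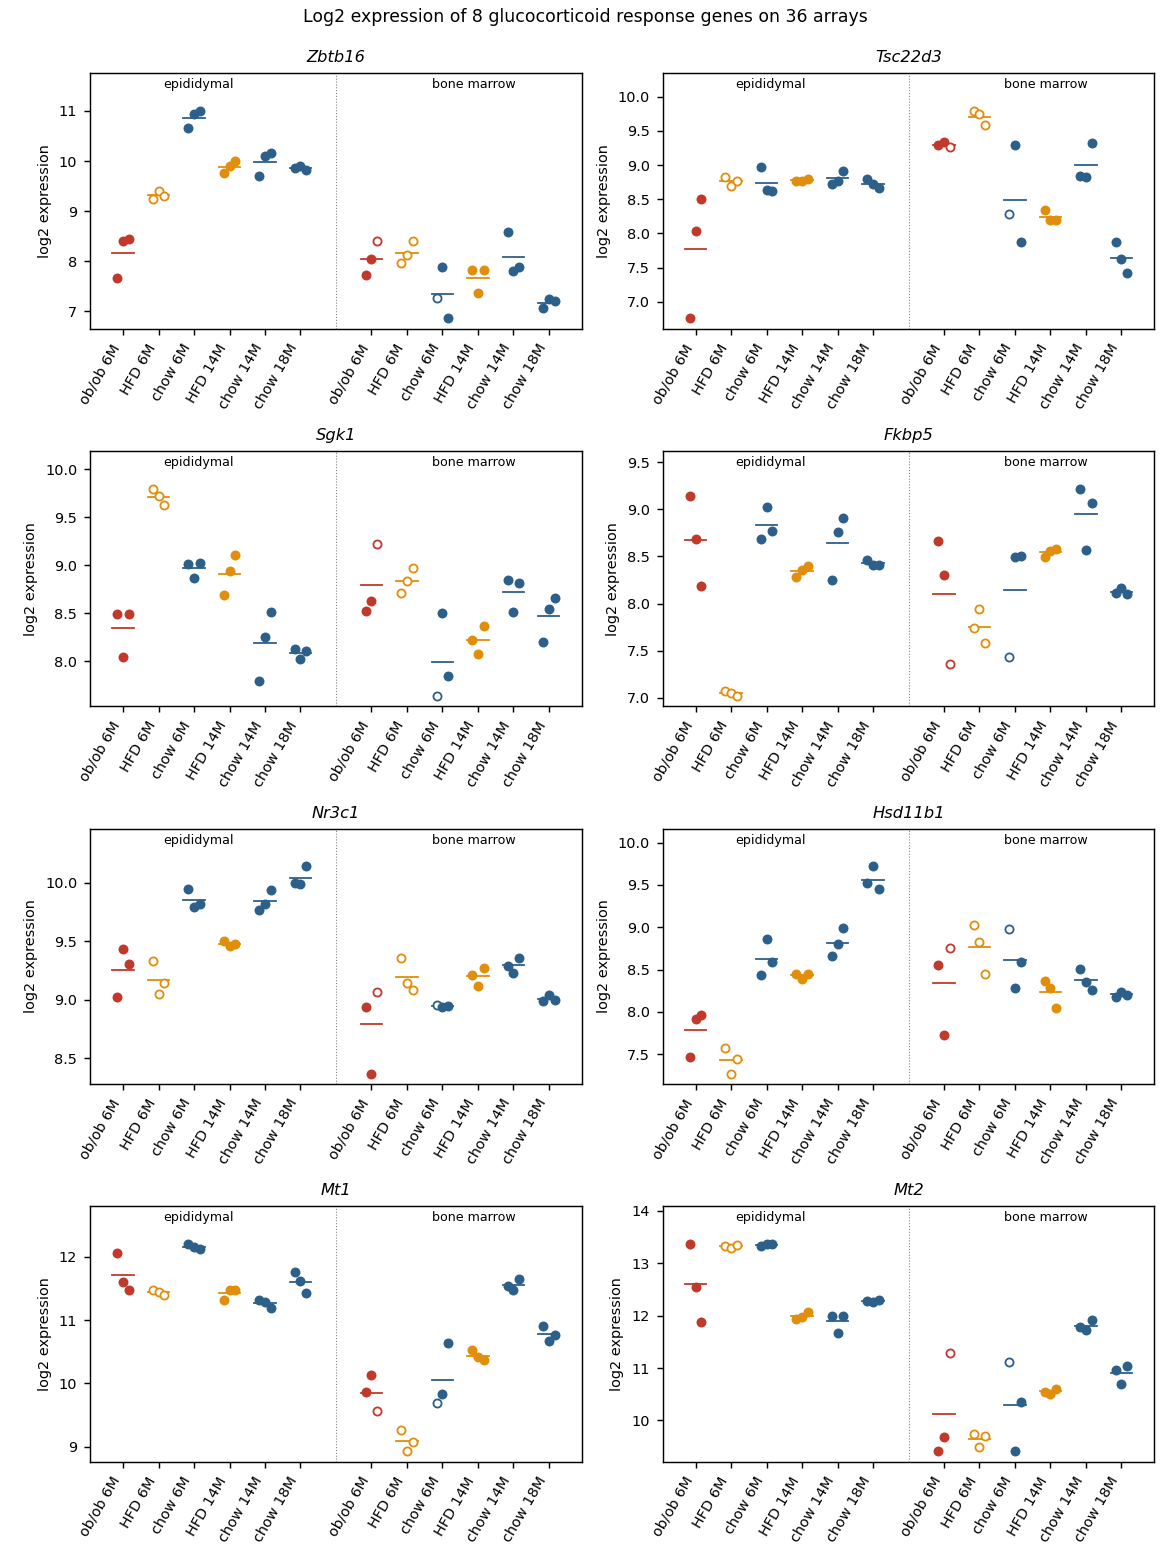
Log2 expression of the 8 genes on each of the 36 arrays, by depot and group, with a bar at each group mean. Open points are the 8 arrays of the set that stands apart. For Fkbp5 all open points lie at 7.94 or below and all filled points at 8.10 or above, and for Zbtb16 the 3 epididymal ob/ob arrays lie below every other epididymal array.

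In epididymal adipocytes of ob/ob mice the glucocorticoid target Zbtb16 lay far below chow, 4 more of the members passed at a fall of less than 2-fold, and Fkbp5 gave no detectable difference. Zbtb16 measured 7.66, 8.40 and 8.44 on the ob/ob arrays, against 10.66, 10.93 and 11.00 on the chow arrays. The ob/ob arrays all lay below the chow arrays, by more than 2 log2 units at the nearest. The difference was -2.70 ± 0.24, or 6.49-fold lower in ob/ob mice (limma, adjusted p = 8.78e-10), and it stayed between -2.83 and -2.45 when any 1 array was left out. Zbtb16 was the only one of the 8 members called, and 9.77% of all probe sets were called in this comparison. At an adjusted p under 0.05 with no minimum fold, 5 members were lower and 0 higher, against 15% lower and 14.8% higher among all probe sets. The median difference of the 8 members was -0.69, and that of all probe sets -0.07.

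Tsc22d3, the anti-inflammatory target, measured 6.76, 8.03 and 8.51 on the ob/ob arrays, against 8.97, 8.63 and 8.62 on the chow arrays. The groups did not overlap, but the spread was wide in ob/ob mice and ob/ob array 01 was far below the others. The difference of -0.98 ± 0.29 (adjusted p = 0.0103) fell just short of 2-fold. It was -0.47 (adjusted p = 0.137) without ob/ob array 01, and it was called at -1.03, -1.04, -1.11 and -1.35 without chow array 02, chow array 03, ob/ob array 02 and ob/ob array 03. Sgk1, the kinase, measured 8.49, 8.05 and 8.49 on the ob/ob arrays, against 9.01, 8.87 and 9.03 on the chow arrays, with no overlap. Its difference was -0.63 ± 0.20 (adjusted p = 0.0182), and it did not pass without chow array 03 (adjusted p = 0.0588) or ob/ob array 02 (-0.48, adjusted p = 0.116). Fkbp5, the receptor's brake, measured 9.14, 8.69 and 8.19 on the ob/ob arrays, against 8.69, 9.03 and 8.77 on the chow arrays, so that the groups overlapped. Its difference was -0.16, with a 95% confidence interval of -0.72 to 0.41 (adjusted p = 0.71).

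The receptor and the enzyme that feeds it were also lower in epididymal ob/ob cells. Nr3c1 measured 9.02, 9.43 and 9.31 on the ob/ob arrays, against 9.95, 9.79 and 9.82 on the chow arrays, a difference of -0.60 ± 0.14 (adjusted p = 0.00123). Hsd11b1 measured 7.47, 7.91 and 7.96 on the ob/ob arrays, against 8.44, 8.86 and 8.59 on the chow arrays, a difference of -0.85 ± 0.21 (adjusted p = 0.0022). Neither gene overlapped between the groups, both passed with any 1 array left out, and neither reached 2-fold.

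The metallothioneins bind zinc and copper and are induced by metal, glucocorticoid and inflammation. Mt1 measured 12.05, 11.60 and 11.48 on the ob/ob arrays, against 12.20, 12.15 and 12.12 on the chow arrays, and the difference of -0.45 ± 0.18 did not pass (adjusted p = 0.0567). Mt2 measured 13.37, 12.55 and 11.88 on the ob/ob arrays, against 13.33, 13.37 and 13.36 on the chow arrays. Here ob/ob array 01 sat within the chow range and the other ob/ob arrays lay below it. The difference was -0.75 ± 0.36 (adjusted p = 0.116), and -1.14 without ob/ob array 01 (adjusted p = 0.0206), which is a call. In all, 6 of the 8 members had ob/ob arrays wholly below the chow arrays, as did 23% of all probe sets.

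Markers of other cell types moved in the same comparison. The 10 macrophage markers were all called higher in ob/ob mice, with a mean level of 10.41 to 11.17 on the ob/ob arrays against 7.43 to 7.78 on the chow arrays, and 4 of 6 fibroblast markers were called higher (11.07 to 11.54 against 9.65 to 9.84). Also called higher were 3 of 4 B cell, 2 of 4 T cell and 1 of 5 platelet markers. Of 10 neutrophil markers 1 was called lower. Of 9 adipocyte markers measured 5 were called lower, including Adipoq (-1.60), Plin1 (-1.31) and Retn (-2.33), with a mean level of 11.44 to 11.92 on the ob/ob arrays against 12.86 on the chow arrays. Ob/ob array 01, lowest for Tsc22d3 and Zbtb16, was lowest of its group for adipocyte markers (11.44) and highest for neutrophil markers (7.72, against 6.37 and 5.94). Chow array 01 was higher still for neutrophil markers, at 8.90 against 5.95 and 5.70 on chow arrays 02 and 03. The part of all these markers in the differences of the 8 members was not tested, and in these pooled preparations fewer cells of a type and less RNA per cell cannot be told apart.

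**Figure D2:**
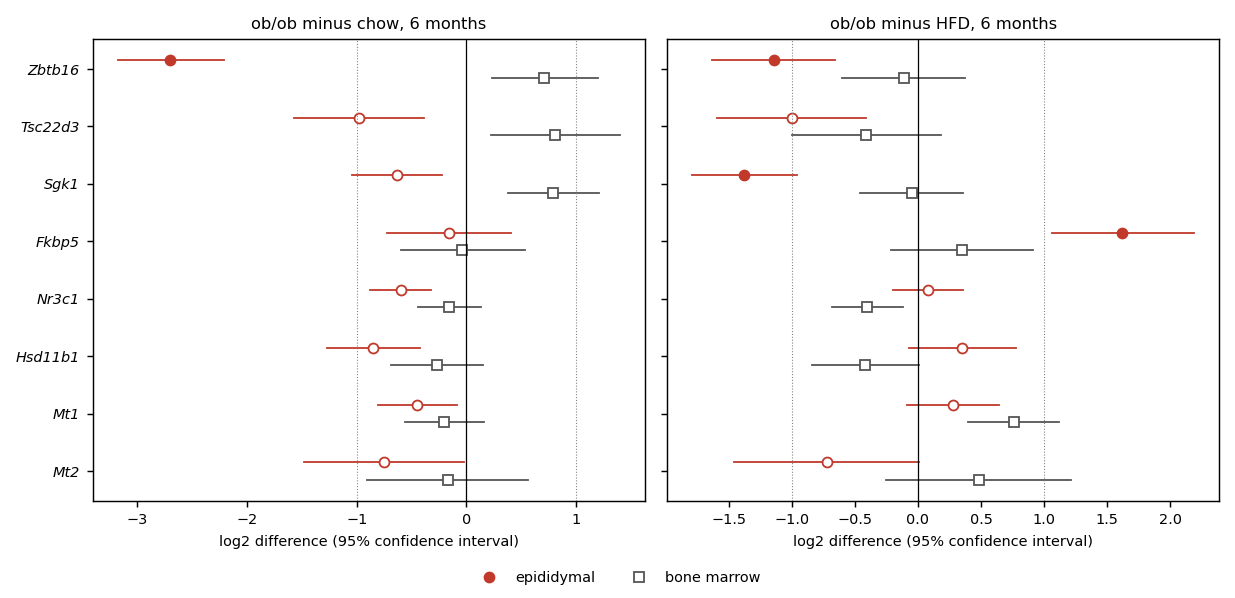
Log2 differences of the 8 genes at 6 months, ob/ob minus chow on the left and ob/ob minus HFD on the right, with 95% confidence intervals from limma (3 arrays a group). Circles are epididymal and squares bone marrow cells, filled symbols are called and open ones are not, and dotted lines mark 2-fold. Zbtb16, Tsc22d3 and Sgk1 lie left of 0 in epididymal cells and right of 0 in bone marrow in the comparison with chow.

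In bone marrow cells none of the 8 members was called between ob/ob and chow mice, 0 passed at an adjusted p under 0.05 with limma, and few probe sets of any kind were called (0.15%) or passed (0.278%) there. Tsc22d3 measured 9.29, 9.34 and 9.26 on the ob/ob arrays, against 8.28, 9.30 and 7.88 on the chow arrays. The ob/ob arrays agreed closely while the chow arrays spread over more than 1 log2 unit and chow array 02 reached the ob/ob level. Its difference was 0.81 ± 0.29 (adjusted p = 0.327). Zbtb16 measured 7.72, 8.04 and 8.40 on the ob/ob arrays, against 7.27, 7.88 and 6.86 on the chow arrays, a difference of 0.71 ± 0.24 (adjusted p = 0.279). Sgk1 measured 8.53, 8.63 and 9.22 on the ob/ob arrays, against 7.64, 8.50 and 7.85 on the chow arrays, the only member without overlap, with a difference of 0.79 ± 0.20 (adjusted p = 0.0968). Ob/ob arrays wholly above the chow arrays were found in 2.31% of all probe sets. At an unadjusted p under 0.05 these 3 of the 8 members would pass, as would 8.71% of all probe sets, and none of the other members would.

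Chow array 02 decided that outcome. Without it Tsc22d3 (1.21, adjusted p = 0.0191) and Sgk1 (1.05, adjusted p = 0.00467) were called, against 0.589% of all probe sets in that fit, and Zbtb16 passed at 0.98 (adjusted p = 0.0381). The set of arrays crosses this comparison, since chow array 01 and ob/ob array 03 belong to it. Within the set, ob/ob array 03 minus chow array 01 gave 0.98 for Tsc22d3, 1.12 for Zbtb16 and 1.58 for Sgk1. Outside the set, with 2 arrays a group, the differences were 0.72, 0.51 and 0.40 for Tsc22d3, Zbtb16 and Sgk1, and none passed. Of the other members, Fkbp5 differed by -0.04 (95% confidence interval -0.60 to 0.53), Nr3c1 by -0.16, Hsd11b1 by -0.27, Mt1 by -0.20 and Mt2 by -0.17. One of 9 adipocyte markers, Cidec, was called higher in ob/ob mice (1.44), and the mean adipocyte marker level was 7.40 to 8.77 on the ob/ob arrays against 7.15 to 7.62 on the chow arrays. The part of these cells in the differences was not tested.

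The 3 targets therefore moved differently in the 2 depots, and this was tested as an interaction, the ob/ob minus chow difference in epididymal cells minus that in bone marrow cells. The interaction was -3.41 ± 0.34 for Zbtb16 (adjusted p = 2.43e-08), -1.78 ± 0.41 for Tsc22d3 (adjusted p = 0.00192) and -1.42 ± 0.28 for Sgk1 (adjusted p = 0.000487). These 3 of the 8 members were called, all negative, against 10.8% of all probe sets called and 4.49% called negative. The calls of all 3 held when any 1 array was left out, with ranges of -3.68 to -3.16, -2.19 to -1.28 and -1.68 to -1.21 for Zbtb16, Tsc22d3 and Sgk1. They also held with a term for the array set, but that term cannot change these estimates. Chow and ob/ob bone marrow each hold 1 array of the set, and the 2 epididymal groups hold none. Arrays of the 2 depots were treated as independent in this test. With the arrays of the 4 groups alone Tsc22d3 no longer passed (adjusted p = 0.0609). Nr3c1 (-0.44, adjusted p = 0.113), Hsd11b1 (-0.58, adjusted p = 0.177), Mt2 (-0.58, adjusted p = 0.47), Mt1 (-0.24, adjusted p = 0.547) and Fkbp5 (-0.12, adjusted p = 0.869) did not pass.

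The wider pathway was read from lists chosen with earlier results of these data known. They do not record whether glucocorticoid raises or lowers a gene in fat, so a fall is no measure of receptor activity. Of 30 other glucocorticoid target genes, known from fat or from other tissues, 29 were measured. In epididymal cells 14 of them were called lower and 4 higher in ob/ob mice, against 4.14% and 5.62% of all probe sets, and their median difference was -0.97 where that of all probe sets was -0.07. The fall was deepest in Pck1, the gluconeogenic enzyme that feeds glycerol synthesis in fat (-3.45 ± 0.29, adjusted p = 2.9e-10), and in Irs2, an adaptor of the insulin receptor (-2.51 ± 0.20, adjusted p = 1.28e-10). Others were Nfkbia, the inhibitor of NF-κB (-1.89), the Krüppel-like factors Klf15 (-1.88) and Klf9 (-1.02), the feedback regulators Errfi1 (-1.85) and Dusp1 (-1.71), Gadd45g (-1.84), Cebpd (-1.83), Lpin1 (-1.63), Foxo1 (-1.43), Orm1 (-1.22), the clock gene Per1 (-1.18) and Angptl4, an inhibitor of lipoprotein lipase (-1.15). Higher in ob/ob mice were Ddit4, an inhibitor of mTORC1 (1.04 ± 0.15, adjusted p = 2.52e-06), Rgs2 (1.73), and the acute phase genes Lcn2 (2.43) and Saa3 (2.78). The arrays of Lcn2 spread widely in both groups, and most in chow (SD 1.99, against 0.926 in ob/ob). Those of Saa3 spread widely in the ob/ob group (SD 1.65, against 0.354 in chow). Among bone marrow cells 0 of the 29 were called or passed (median 0.02), and in the interaction 14 were called negative and 5 positive. The macrophage, fibroblast and adipocyte markers given above moved in the same arrays, and their part in these counts was not tested.

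**Figure D3:**
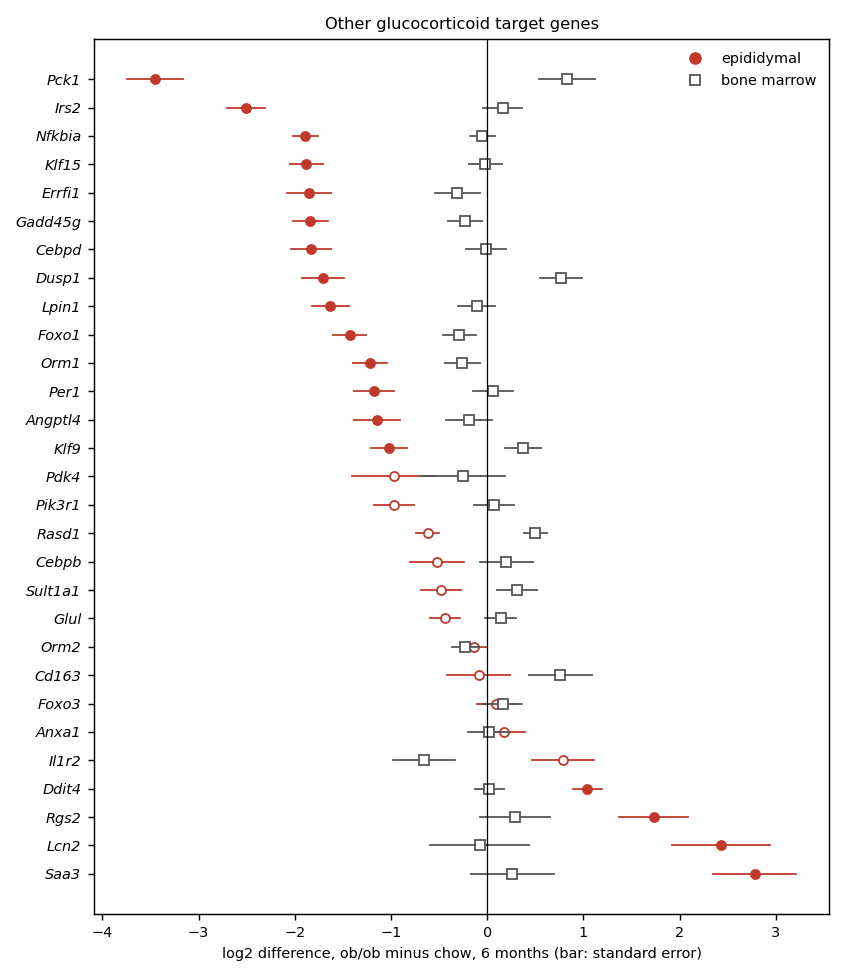
Log2 differences, ob/ob minus chow at 6 months, of the 29 other glucocorticoid target genes measured, with standard errors (3 arrays a group), for epididymal cells (circles) and bone marrow cells (squares), filled where called. The genes are ordered by the epididymal difference, 14 are called on the left and 4 on the right, and no bone marrow symbol is filled.

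The shorter lists are read against the 9.77% of all probe sets called in epididymal cells, 5.62% called higher and 14.8% passing upward. Among receptor partners, 8 of 10 were measured and 1 was called in epididymal ob/ob cells, Nrip1, a corepressor of nuclear receptors in fat (-2.25 ± 0.12, adjusted p = 2.17e-13). Of the genes of hormone activation, inactivation and transport 5 of 6 were measured and 1 was called, H6pd, which supplies NADPH to the Hsd11b1 enzyme (-1.23 ± 0.14, adjusted p = 4.65e-08). Of 8 other metal response genes 3 were called higher, the zinc importers Slc39a10 (1.09) and Slc39a14 (1.41) and the heme oxygenase Hmox1 (1.02), while Mt1 and Mt2 lay lower or overlapped. Of 5 relatives and partners of Sgk1 none was called, and 2 passed upward. None of the genes on these 4 lists was called in bone marrow cells between ob/ob and chow mice.

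Set against obesity from diet, epididymal ob/ob cells showed a mixed pattern. Sgk1 measured 8.49, 8.05 and 8.49 on the ob/ob arrays, against 9.80, 9.72 and 9.63 on the HFD arrays, a difference of -1.38 ± 0.20 (adjusted p = 7.24e-06). The groups were more than 1 log2 unit apart, and Sgk1 stayed called with every array left out in turn and with a term for the array set (-1.33, adjusted p = 0.00311). Zbtb16 measured 7.66, 8.40 and 8.44 on the ob/ob arrays, against 9.24, 9.40 and 9.30 on the HFD arrays (-1.14 ± 0.24, adjusted p = 0.000457), but was not called without ob/ob array 01 (-0.89) or with the set term (-0.93, adjusted p = 0.0796). Fkbp5 was 1.62 ± 0.27 higher (adjusted p = 4.54e-05), with HFD arrays at 7.07, 7.05 and 7.02. With the set term that difference was 0.53 (adjusted p = 0.241). These 3 of 8 members were called against 10.1% of all probe sets. Tsc22d3 passed, as it fell by 1.00 ± 0.29 (adjusted p = 0.00821), just under 2-fold, and did not pass without ob/ob array 01 (-0.49, adjusted p = 0.134) or with the set term (-1.18, adjusted p = 0.0685). Hsd11b1 passed only with that term (0.93, adjusted p = 0.0169). Of the markers, 5 of 6 for fibroblasts were called higher in ob/ob mice than on HFD (mean level 11.07 to 11.54 on the ob/ob arrays against 9.09 to 9.26 on the HFD arrays), 3 of 10 for neutrophils, 2 of 4 each for B cells, T cells and erythroid cells, 2 of 6 for endothelium and 1 of 6 for mesothelium were called higher, 3 of 10 for macrophages lower and 1 higher, and 2 of 9 for adipocytes lower (11.44 to 11.92 on the ob/ob arrays against 12.48 to 12.52 on the HFD arrays). Their part was not tested. The comparisons with chow and with HFD share the ob/ob arrays and are not independent.

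In bone marrow cells 0 of 8 members were called between ob/ob and HFD mice, against 1.09% of all probe sets, and 1 passed, against 4.82%. That was Mt1, which measured 9.86, 10.14 and 9.57 on the ob/ob arrays, against 9.27, 8.93 and 9.08 on the HFD arrays (0.76 ± 0.18, adjusted p = 0.013). It did not pass with the set term (0.43, adjusted p = 0.267). Mt2 was called only with the set term (1.47, adjusted p = 0.00752). For Mt2 ob/ob array 03 at 11.28 stood far above the other ob/ob arrays at 9.41 and 9.68, and the HFD arrays lay at 9.74, 9.49 and 9.70. For Tsc22d3 (-0.41), Zbtb16 (-0.11) and Sgk1 (-0.05) the ob/ob and HFD groups of bone marrow lay closer to each other than either did to chow. Of 5 platelet markers 3 were called higher in ob/ob mice than on HFD here (8.80 to 9.87 on the ob/ob arrays against 7.87 to 8.77 on the HFD arrays), as was 1 of 9 adipocyte markers, while 1 of 4 B cell markers was called lower, and their part was not tested.

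**Figure D4:**
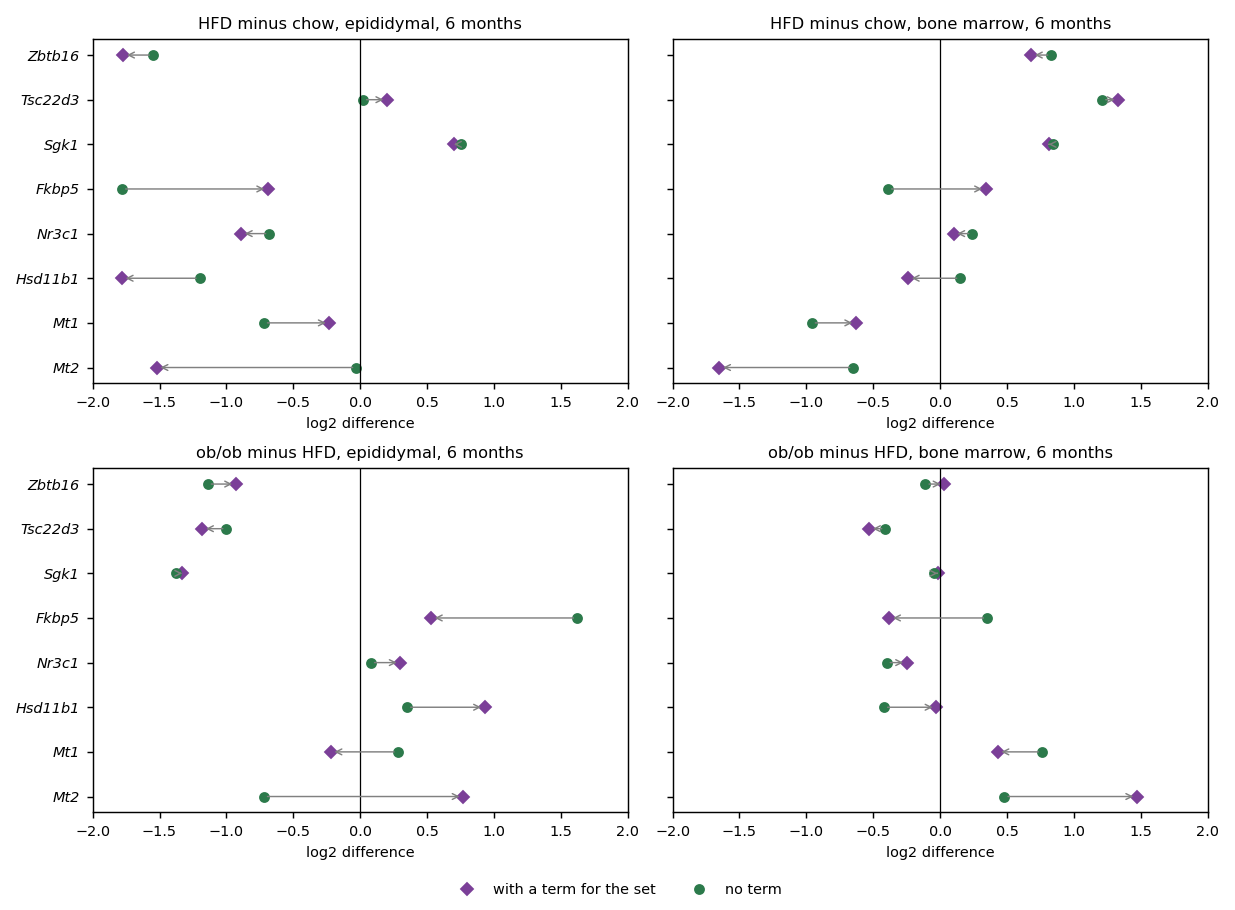
Log2 differences of the 8 genes in 4 comparisons at 6 months, fitted with no term for the set of 8 arrays (circles) and with one (diamonds). Fkbp5, Hsd11b1 and Mt2 move farthest, while Sgk1 and Tsc22d3 keep their sign in all 4 panels.

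Fkbp5 followed the array set across the whole study. It lay between 7.02 and 7.94 on all 8 arrays of the set and between 8.10 and 9.22 on all 28 others, with no overlap, a split that 0.982% of all probe sets share in that direction. Within bone marrow at 6 months, where the set cuts through groups, chow array 01 measured 7.43 against 8.49 and 8.50 on chow arrays 02 and 03, and ob/ob array 03 measured 7.36 against 8.66 and 8.30 on ob/ob arrays 01 and 02. Nr3c1 and Mt1 were also parted there, Nr3c1 at 8.96 to 9.36 on the 5 arrays of the set against 8.37 to 8.95 on the 4 others, and Mt1 at 8.93 to 9.69 against 9.84 to 10.64. Over all 36 arrays the 7 members other than Fkbp5 overlapped between the set and the rest. The Fkbp5 differences that involve 6-month HFD arrays are given with this in view.

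On HFD at 6 months, 3 of 8 members were called lower in epididymal cells, against 14.6% of all probe sets called in either direction, and 6 passed, against 39.2%. Fkbp5 differed by -1.78 ± 0.27 from chow (adjusted p = 6.48e-06) and by -0.69 with the set term (adjusted p = 0.0715). Zbtb16 fell to 9.24, 9.40 and 9.30 on the HFD arrays, against 10.66, 10.93 and 11.00 on the chow arrays, a difference of -1.55 ± 0.24 (adjusted p = 5.93e-06), or -1.77 with the set term (adjusted p = 0.000319). Hsd11b1 fell to 7.57, 7.27 and 7.44 on the HFD arrays, against 8.44, 8.86 and 8.59 on the chow arrays, a difference of -1.20 ± 0.21 (adjusted p = 3.13e-05), or -1.78 with the set term (adjusted p = 8.04e-06). The HFD and chow arrays did not overlap for these 2 genes. In this depot the term only carries over an estimate made in bone marrow. A call kept with it does not part diet from array set. Nr3c1 passed at -0.68 ± 0.14 (adjusted p = 0.000222) and Mt1 at -0.72 ± 0.18 (adjusted p = 0.00158), while Sgk1 rose by 0.75 ± 0.20 (adjusted p = 0.00368). Nr3c1 still passed with the set term (-0.89, adjusted p = 0.000931), but Mt1 (-0.23, adjusted p = 0.525) and Sgk1 (0.70, adjusted p = 0.0918) did not. Tsc22d3 did not pass (0.02, 95% confidence interval -0.57 to 0.61). Mt2 measured 13.33, 13.30 and 13.34 on the HFD arrays, within the chow range, and became a call at -1.52 (adjusted p = 0.00118) with the set term. Macrophage markers were called higher in 10 of 10 here as well (11.37 to 11.45 on the HFD arrays, against 7.43 to 7.78 on the chow arrays). Called lower were 3 of 6 fibroblast, 4 of 10 neutrophil, 2 of 4 erythroid and 2 of 6 mesothelial markers. Of 6 endothelial markers 1 was called each way, 1 of 5 platelet markers was called higher, and no adipocyte marker was called. The part of these markers was not tested. The comparison shares its chow arrays with that of ob/ob mice.

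At 14 months 0 of 8 members were called between HFD and chow in epididymal cells, against 3.57% of all probe sets, and 1 passed, against 13.1%. It was Sgk1, at 8.69, 8.94 and 9.11 on the HFD arrays against 7.80, 8.25 and 8.52 on the chow arrays (0.72 ± 0.20, adjusted p = 0.0144). Of the markers at 14 months, 5 of 6 mesothelial, 3 of 4 B cell, 2 of 4 T cell and 3 of 6 endothelial were called lower. So were 2 of 6 fibroblast, 1 of 10 macrophage, 1 of 4 erythroid and 1 of 5 platelet markers. The part of these markers was not tested. Sgk1 was higher on HFD at both ages, at 6 months without passing when the set term is fitted, and its interaction of diet with age was -0.02 (95% confidence interval -0.61 to 0.56). Zbtb16 and Fkbp5 were called in that interaction (1.45 ± 0.34, adjusted p = 0.00139, and 1.49 ± 0.39, adjusted p = 0.00394), against 16.9% of all probe sets. Mt1 (0.88 ± 0.25, adjusted p = 0.00766) and Hsd11b1 (0.82 ± 0.29, adjusted p = 0.0346) passed. With the set term Zbtb16 stayed called at 1.66 and Fkbp5 was 0.40 (adjusted p = 0.457), Hsd11b1 (1.40, adjusted p = 0.00171) and Mt2 (1.62, adjusted p = 0.00429, against 0.13 without the term) became calls, and Mt1 no longer passed (0.39, adjusted p = 0.355).

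In bone marrow cells 3 targets lay higher on HFD than on chow at 6 months. Tsc22d3 measured 9.79, 9.74 and 9.58 on the HFD arrays, against 8.28, 9.30 and 7.88 on the chow arrays, and was the only 1 of 8 members called (1.21 ± 0.29, adjusted p = 0.0152), against 1.34% of all probe sets. Without chow array 03 it did not pass (0.91, adjusted p = 0.201), nor without HFD array 02 (1.20, adjusted p = 0.0599), nor in a fit of these groups alone (adjusted p = 0.31). Sgk1 (0.84 ± 0.20, adjusted p = 0.0155) and Zbtb16 (0.83 ± 0.24, adjusted p = 0.0421) passed upward, and Mt1 passed downward (-0.96 ± 0.18, adjusted p = 0.00269). With the set term Tsc22d3 stayed called (1.33, adjusted p = 0.0464), Mt2 became a call (-1.65, adjusted p = 0.00142), and Sgk1 (adjusted p = 0.0904), Zbtb16 (adjusted p = 0.288) and Mt1 (adjusted p = 0.075) no longer passed. The count changed without any 1 of 5 of the 6 arrays, all but HFD array 03. Without chow array 02, 4 members were called, where 1.15% of all probe sets were. Without chow array 03, 0 were called, where 0.243% of all probe sets were. Of 5 platelet markers 4 were called lower on HFD in this comparison (mean level 7.87 to 8.77 on the HFD arrays against 9.44 to 10.51 on the chow arrays), 1 of 9 adipocyte markers was called higher and 1 of 10 macrophage markers each way, and their part was not tested. Within the array set, the HFD mean minus chow array 01 was 1.42 for Tsc22d3, 0.89 for Zbtb16 and 1.20 for Sgk1, and against chow arrays 02 and 03 it was 1.11, 0.80 and 0.66 for Tsc22d3, Zbtb16 and Sgk1.

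At 14 months the same 3 genes lay lower on HFD in bone marrow without passing, at -0.75 for Tsc22d3 (adjusted p = 0.189), -0.42 for Zbtb16 (adjusted p = 0.468) and -0.50 for Sgk1 (adjusted p = 0.225). The interaction of diet with age in bone marrow was called for all 3, at -1.96 ± 0.41 for Tsc22d3 (adjusted p = 0.00489), -1.34 ± 0.28 for Sgk1 (adjusted p = 0.00579) and -1.25 ± 0.34 for Zbtb16 (adjusted p = 0.0286), against 2.82% of all probe sets. Zbtb16 lost its call with the set term (adjusted p = 0.0982), with the 4 groups alone (adjusted p = 0.0815) and without any 1 of 5 arrays (adjusted p of 0.0515 to 0.125), and the other 2 kept theirs. Mt1 was the 1 member of 8 called between HFD and chow at 14 months, against 0.743% of all probe sets, at 10.53, 10.41 and 10.37 on the HFD arrays against 11.53, 11.47 and 11.64 on the chow arrays (-1.11 ± 0.18, adjusted p = 0.000451). Mt2 lay apart in the same direction, at 10.55, 10.51 and 10.60 against 11.79, 11.73 and 11.91, and missed the threshold (-1.26 ± 0.36, adjusted p = 0.0522), which it crossed with the set term (adjusted p = 0.00125).

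**Figure D5:**
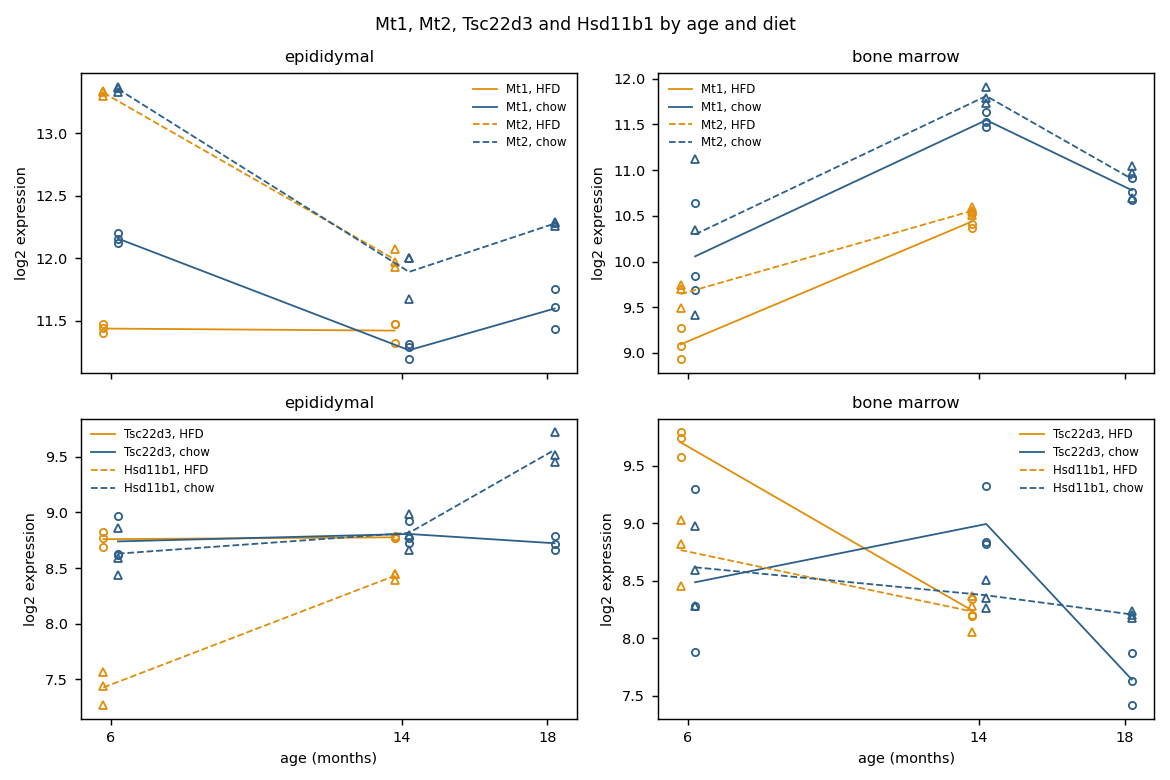
Log2 expression of Mt1 and Mt2 (top) and of Tsc22d3 and Hsd11b1 (bottom) against age in months, in epididymal cells (left) and bone marrow cells (right), for HFD at 6 and 14 months and chow at 6, 14 and 18 months. Symbols are arrays and lines join group means, solid for the first gene and dashed for the second. From 6 to 14 months on chow Mt2 means fall to 11.89 in epididymal cells and rise to 11.81 in bone marrow cells.

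With age on chow the metallothioneins ran in opposite directions in the 2 depots. In epididymal cells Mt2 averaged 13.35 ± 0.0214 at 6 months, 11.89 ± 0.187 at 14 months and 12.27 ± 0.0173 at 18 months (SD, n = 3 arrays), with no overlap between ages. It was the only member called at 14 against 6 months (-1.46 ± 0.36, adjusted p = 0.00457), against 4.53% of all probe sets, and Mt1 (-0.90 ± 0.18, adjusted p = 0.000523), Zbtb16 (-0.87 ± 0.24, adjusted p = 0.0114) and Sgk1 (-0.78 ± 0.20, adjusted p = 0.00729) passed in the same direction. In bone marrow cells Mt1 averaged 10.06 ± 0.513 at 6 months, 11.55 ± 0.087 at 14 months and 10.78 ± 0.118 at 18 months, and Mt2 averaged 10.30 ± 0.855, 11.81 ± 0.096 and 10.90 ± 0.179 at those ages. Both were called higher at 14 against 6 months (1.49 ± 0.18, adjusted p = 5.16e-06, for Mt1 and 1.51 ± 0.36, adjusted p = 0.0103, for Mt2), against 1.18% of all probe sets, and Sgk1 passed upward (0.73 ± 0.20, adjusted p = 0.0309). The Mt2 call was lost without the 6-month chow array 02 (1.07, adjusted p = 0.0838) or the 14-month chow array 03 (1.46, adjusted p = 0.0573), and in a fit of these groups alone (adjusted p = 0.0801). Whether the age differences themselves differ between depots was not tested. Epididymal macrophage markers moved with age too, with a mean level of 7.43 to 7.78 at 6 months, 9.39 to 10.07 at 14 months and 6.44 to 6.54 at 18 months on chow. In bone marrow at 14 against 6 months 2 of 4 B cell and 2 of 4 T cell markers were called higher and 2 of 6 endothelial and 1 of 6 fibroblast markers lower. The part of these markers was not tested.

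On HFD, 3 of 8 members were called in epididymal cells at 14 against 6 months, Fkbp5 (1.30), Hsd11b1 (1.00) and Mt2 (-1.33), against 11.3% of all probe sets, and Sgk1 passed downward (-0.80 ± 0.20, adjusted p = 0.00239). Mt1 did not move with Mt2 in this comparison (-0.02, adjusted p = 0.958). Here the 6-month arrays are all of the set, and with the set term the call for Hsd11b1 alone was kept, while Mt2 turned to 0.16 (adjusted p = 0.831) and Sgk1 did not pass (-0.75, adjusted p = 0.0783). Hsd11b1 sat at the threshold and was 0.92 without the 6-month HFD array 02 and 0.99 without the 14-month HFD array 01 or 03. On HFD in bone marrow, Mt1 was called higher (1.35 ± 0.18, adjusted p = 1.28e-05) and Tsc22d3 lower (-1.46 ± 0.29, adjusted p = 0.00061) at 14 against 6 months, against 5.47% of all probe sets, while Fkbp5 passed upward (0.79 ± 0.27, adjusted p = 0.0391) and Sgk1 downward (-0.61 ± 0.20, adjusted p = 0.0278). With the set term Tsc22d3 stayed called (-1.64, adjusted p = 0.0249), Mt1 was 0.85 (adjusted p = 0.0271) and Mt2 became a call (2.40, adjusted p = 0.000205, against 0.91 without the term). Fkbp5 turned to -0.30 (adjusted p = 0.674) and Sgk1 no longer passed (-0.57, adjusted p = 0.338).

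At 18 months on chow, where age and a grouping of the arrays cannot be told apart, 1 member was called in bone marrow against 14 months and 0 in epididymal cells, against 1.81% and 6.18% of all probe sets. Tsc22d3 in bone marrow measured 7.87, 7.63 and 7.42 at 18 months, against 8.84, 8.82 and 9.32 at 14 months, a difference of -1.35 ± 0.27 (adjusted p = 0.000937). Zbtb16 (-0.92, adjusted p = 0.00536), Mt1 (-0.77, adjusted p = 0.00232) and Fkbp5 (-0.82, adjusted p = 0.031) passed in the same direction. Without the 14-month chow array 02 Fkbp5, Tsc22d3 and Zbtb16 were called, against 1.83% of all probe sets in that fit, and without the 14-month chow array 03 Tsc22d3 and Zbtb16, against 1.47%. Hsd11b1 in epididymal cells measured 9.52, 9.72 and 9.45 at 18 months, above every other epididymal array, and differed from 14 months by 0.75 ± 0.19 (adjusted p = 0.00429) and from 6 months by 0.93 ± 0.19 (adjusted p = 0.00108). Against 6 months Mt2 was the member called in epididymal cells (-1.08 ± 0.33, adjusted p = 0.0266), against 2.36% of all probe sets, and Sgk1 (-0.88, adjusted p = 0.00195) and Mt1 (-0.56, adjusted p = 0.0229) passed downward, as did Zbtb16, which fell by 1.00 (adjusted p = 0.00209). The Mt2 call was lost without any 1 of 5 of the 6 arrays, with adjusted p values of 0.0615 to 0.0762, although the difference stayed between -1.08 and -1.07. In bone marrow 0 of 8 were called at 18 against 6 months, against 0.991% of all probe sets, and Mt1 passed (0.72, adjusted p = 0.00828). Tsc22d3 and Mt1 were called without the 6-month chow array 03, against 2.41% of all probe sets in that fit.

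Between depots on chow at 6 months, 3 of 8 members were called, all higher in epididymal cells, against 23% of all probe sets called. Zbtb16 was 3.53 ± 0.24 higher (11.5-fold, adjusted p = 6.95e-13), Mt2 3.06 ± 0.36 higher (8.31-fold, adjusted p = 3.24e-08) and Mt1 2.10 ± 0.18 higher (4.29-fold, adjusted p = 6.11e-11). Sgk1 (0.97, adjusted p = 0.000181), Nr3c1 (0.90, adjusted p = 2.77e-06) and Fkbp5 (0.69, adjusted p = 0.0426) passed upward. In ob/ob mice the metallothioneins kept that order, with differences of 2.48 ± 0.36 for Mt2 (adjusted p = 1.69e-06) and 1.86 ± 0.18 for Mt1 (adjusted p = 1.28e-09). Zbtb16 no longer differed detectably between the depots of ob/ob mice (0.12, 95% confidence interval -0.37 to 0.60), at 7.66, 8.40 and 8.44 on the epididymal arrays against 7.72, 8.04 and 8.40 on the bone marrow arrays. Tsc22d3 was called lower in epididymal ob/ob cells (-1.53 ± 0.29, adjusted p = 7.22e-05), so that again 3 of 8 were called, against 18.3% of all probe sets. Nr3c1 passed upward (0.46, adjusted p = 0.00745) and Hsd11b1 downward (-0.56, adjusted p = 0.0279). Cell composition differs between the depots as the markers above show, and its part was not tested.

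The order of the group means places these results side by side. In epididymal cells Zbtb16 ran from chow at 6 months (10.87) through chow at 14 months (9.99), HFD at 14 months (9.89) and chow at 18 months (9.87), which overlapped, to HFD at 6 months (9.31) and ob/ob (8.17), which stood apart from their neighbours. The span was 6.5-fold, the widest of the 8 genes in that depot. Tsc22d3 was almost level over the 5 groups other than ob/ob (8.72 to 8.81, all overlapping), with ob/ob at 7.76 ± 0.905 (SD). Sgk1 was highest on HFD at 6 months (9.72), apart from all others, and lowest on chow at 18 months (8.09), with ob/ob at 8.34 below HFD at 14 months (8.91) with no overlap and overlapping chow at 14 months (8.19). Nr3c1 was highest on chow at 18 months (10.04) and lowest in the 2 obese 6-month groups, ob/ob (9.25) and HFD (9.17), which overlapped. Hsd11b1 had the same 3 groups at its ends, at 9.56 on chow at 18 months, 7.78 in ob/ob and 7.43 on HFD at 6 months. The widest spans in bone marrow cells were those of Mt1 (5.5-fold), Mt2 (4.5-fold) and Tsc22d3 (4.17-fold), and Nr3c1 (1.41-fold) and Hsd11b1 (1.46-fold) varied least.

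The genes whose pattern was most like that of each member were found by Pearson's r over the 12 group means, each centred on its depot. These are descriptions over 12 points that share arrays, normalization and the array set. For Zbtb16 they were Adig (0.931), Prkag2 (0.928) and Polg (0.927). For Fkbp5 they were Zfp839 (0.979), Eri3 (0.967) and Clasrp (0.966), for Tsc22d3 Acp4 (0.95), D630045J12Rik (0.938) and Zfp213 (0.925), and for Sgk1 Gstp3 (0.91), Ppp1r13l (0.884) and Sgms1 (0.881). For Nr3c1 they were Lypd6b (0.94), Zfyve27 (0.939) and Tdrd7 (0.92), and for Hsd11b1 Xkr4 (0.978), Sfxn4 (0.965) and Dmrt2 (0.958). Odc1, which encodes ornithine decarboxylase, came first for both Mt1 (0.94) and Mt2 (0.943), followed by Nol10 (0.936) and Eqtn (0.907) for Mt1 and Sdc4 (0.914) and Lonrf1 (0.885) for Mt2. Among the members the nearest pairs were Mt1 with Mt2 (0.847), whose probe sets may share target sequence, and Nr3c1 with Hsd11b1 (0.824). Zbtb16 with Tsc22d3 followed at 0.693. Fkbp5 with Sgk1 gave the lowest value, -0.581.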

How the data were processed

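RNA of cells isolated as adipocytes was hybridized to Affymetrix Mouse Gene 1.0 ST arrays, 3 for each of 12 groups. The deposited values are log2 expression per probe set, made by the authors in Partek Genomics Suite with gcRMA background correction and quantile normalization. The processing notes list both RMA and GCRMA, and which of them gave these values is not settled. Probe sets were named through the platform's gene table: of 35556, 12146 have no symbol and 1621 several, and the 23410 with a symbol were tested. The number of arrays limits the precision. Values were used as deposited, on log2 scale, with no pseudocount or filter.

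Means of groups were estimated in R 4.3.3 by limma 3.58.1, over the 30 arrays of 6 and 14 months (20 residual degrees of freedom), or over all 36 for comparisons with 18 months (24), and 21 comparisons were made. P-values were adjusted by Benjamini-Hochberg over all probe sets tested within a comparison, and confidence intervals are at 95%. The members and lists were chosen with earlier results of these data known. The rule for named genes takes all 8 members in every comparison, and of those that did not pass, some stand only in counts. Of the lists, genes called between ob/ob and chow are named, and for each member the 3 genes of highest Pearson's r over group means. Marker genes of other cell types were summarised by their mean log2 on each array. The fit was tested on simulated data for the ob/ob against chow comparison in epididymal cells.

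The array set was sought among splits of the arrays by a gap of at least 1 log2 unit in unnamed probe sets, with at least 3 arrays a side. Only splits with arrays of both depots on either side were kept. The set of 8 arrays was the most frequent of these, seen in 18 of 12146 unnamed probe sets searched. Its term rests on the chow and ob/ob groups of bone marrow at 6 months, which it divides. Alternatives were median centring, quantile normalization, leaving out low values, testing all probe sets, fitting only the groups compared, the set term, the arrays outside the set, no fold minimum, the replicate number as a block and leaving out each array. Hsp90ab1, Ncor1, Srd5a1 and Cdkn1a were not analysed here.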

Additional observations from a re-analysis of the deposited data

Results flagged for a closer look

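The ob/ob minus chow difference differed between epididymal and bone marrow cells by limma's test of the interaction for Zbtb16 (-3.41), Tsc22d3 (-1.78) and Sgk1 (-1.42). In each of these the epididymal difference was negative and the bone marrow difference positive, and the bone marrow difference alone did not pass. Without epididymal ob/ob array 01 the Tsc22d3 value is -1.28 (adjusted p = 0.00458).

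The HFD minus chow difference changed between 6 and 14 months by the same kind of test. In epididymal cells the interaction was 1.49 for Fkbp5 and 1.45 for Zbtb16, and with a term for the array set it was 0.40 for Fkbp5 and 1.66 for Zbtb16. In bone marrow cells the interaction was -1.96 for Tsc22d3, -1.34 for Sgk1 and -1.25 for Zbtb16. These 3 genes lay higher on HFD at 6 months and lower at 14 months, where none of the differences passed. With the set term the interaction was -2.08 for Tsc22d3, -1.31 for Sgk1 and -1.11 for Zbtb16. The Zbtb16 call was lost with that term (limma, adjusted p = 0.0982). It was also lost with the compared groups alone and without any 1 of 5 arrays.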

How the results depend on the processing

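Each difference was refitted without each array of its own groups in turn, which gave 6 or 12 such fits. The arrays outside the set were fitted only for ob/ob against chow in bone marrow, where no member was called. Of the 33 differences called for a member, 32 kept their direction in every fit run for them, and 20 also kept their call. The exception in direction was Mt2 on HFD at 14 against 6 months in epididymal cells, 0.16 with the set term against -1.33. That term also turned Mt1 (-0.22) and Mt2 (0.77) between ob/ob and HFD in epididymal cells, and Fkbp5 (-0.38) and Zbtb16 (0.03) in bone marrow, none of them called. The term cannot change a difference between groups that hold equal shares of the set, and such differences are among the 120 examined. In all it turned 13 of 120 differences, 2 of which had passed, Mt2 as given and Fkbp5 on HFD at 14 against 6 months in bone marrow (-0.30 against 0.79). Others were Fkbp5 (0.34) and Hsd11b1 (-0.24) for HFD against chow in bone marrow at 6 months and Mt2 (0.39) and Hsd11b1 (0.10) in its interaction with age. Quantile normalization turned Fkbp5 between ob/ob and chow (0.03) and Sgk1 between ob/ob and HFD (0.06) in bone marrow, and median centring turned Nr3c1 between ob/ob and HFD in epididymal cells (-0.04). The cause was not tested. Counts of members called moved as follows. Here and below, changes of a count between 2 and 3 or between 3 and 4 are left out. For ob/ob against chow in epididymal cells the count was 1, and 2 after quantile normalization or median centring, where Tsc22d3 passed 2-fold (-1.07 and -1.09). With the set term it was 1 in place of 3 for ob/ob against HFD in epididymal cells, 1 in place of 0 in bone marrow, 1 in place of 3 for 14 against 6 months on HFD in epididymal cells, and 1 in place of 0 for 18 against 6 months in bone marrow. For HFD against chow in bone marrow at 6 months (1) it was 0 with the compared groups alone and 2 after quantile normalization or with the set term. At 14 months (1) it was 2 with the compared groups alone, after quantile normalization, without low values and with the set term. It was 1 in place of 2 for 14 against 6 months on chow in bone marrow with the compared groups alone, 2 in place of 1 for 18 against 6 months in epididymal cells after quantile normalization, and 1 in place of 0 for 18 against 14 months there after median centring.

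With no minimum fold, which only lowers the bar, counts were 5 for ob/ob against chow in epididymal cells, 1 for ob/ob against HFD in bone marrow, 6 and 1 for HFD against chow in epididymal cells at 6 and 14 months, 4 for its interaction with age and 4 in bone marrow at 6 months. They were 4, 1 and 5 for 14 against 6, 18 against 14 and 18 against 6 months on chow in epididymal cells, 4 and 1 for 18 against 14 and 18 against 6 months in bone marrow, 4 for 14 against 6 months on HFD in bone marrow, and 5 and 6 between the depots of ob/ob and of chow mice.

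Leaving out 1 array moved the count to 1 to 2 for ob/ob against chow in epididymal cells and 0 to 2 in bone marrow, 0 to 4 for HFD against chow in bone marrow at 6 months, 1 to 2 for 14 against 6 months on chow in bone marrow, 1 to 3 for 18 against 14 months and 0 to 2 for 18 against 6 months there, and 0 to 2 for 18 against 6 months in epididymal cells. Directions that turned were those of small differences. Between ob/ob and chow in bone marrow the range was -0.39 to 0.34 for Fkbp5, -0.76 to 0.24 for Mt2, -0.39 to 0.09 for Mt1, -0.30 to 0.06 for Nr3c1 and -0.48 to 0.04 for Hsd11b1. Between ob/ob and HFD there it was -0.29 to 0.05 for Zbtb16, -0.26 to 0.08 for Sgk1 and -0.10 to 0.84 for Mt2. In epididymal cells it was -0.39 to 0.08 for Fkbp5 against chow and -0.01 to 0.20 for Nr3c1 against HFD, and in the interaction with depot -0.49 to 0.23 for Fkbp5 and -0.99 to 0.00 for Mt2.

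Equal replicate numbers gave no steady correlation: in 0 of 18 comparisons was the correlation of deviations above 0.1 in every pair (range -0.55 to 0.40). Between depots it was -0.07, 0.03 and -0.14 on chow and 0.04, -0.09 and 0.18 in ob/ob mice. Since equal numbers need not mark matching pools, this does not show that the pools of the 2 depots are unpaired. The replicate number as a block changed 0 of 87 results, which are counts of members called and differences of members. Every group holds an array of each number, so the block cannot change a difference of group means and could alter only p-values. Median centring moved the median of all probe sets in epididymal cells, to -0.18 in place of -0.07 for ob/ob against chow, to -0.12 in place of 0.01 for ob/ob against HFD and to 0.25 in place of -0.01 for 18 against 14 months. In the last, 312 of 1447 calls were higher as deposited, and 927 of 1699 after centring. With 3 arrays a group, differences that did not pass are not shown to be absent.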
